A study of Mus musculus with 20 samples.

Results

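The genes described here are Pax3, Pax7, Lbx1, Met, Sim1, Myf5 and Myf6, which mark the dermomyotome of the somite and the first steps of skeletal muscle formation. They were selected by gene symbol, with no threshold on a measured value, and are 7 of the 54446 gene IDs in the deposited expression tables. Their transcript levels were compared in trunk-like structures and gastruloids, aggregates of mouse embryonic stem cells that form somites and neural tissue in culture. Bulk RNA sequencing of polyadenylated RNA gave 15 libraries, 3 from each of 5 groups.

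All groups came from 1 embryonic stem cell line, F1G4, with a double reporter (T::H2B-mCherry/Sox2::H2B-Venus). All received 3 µM CHIR99021, an inhibitor of GSK3 that activates WNT signalling, after 48 h of aggregation. The 96h group was collected before any embedding, with 10 structures in each library. The remaining groups were collected at 120 h, with 6 structures in each library. The Gastruloid group was grown without Matrigel. Matrigel, an extract of basement membrane, surrounded the TLSMG group. The TLSMGC group received Matrigel and further CHIR99021. The TLSMGCL group received Matrigel, CHIR99021 and LDN, a compound that inhibits BMP receptors. Structures entered a pool after selection for an asymmetric pole, so the levels apply to selected structures. The labels name 3 biological replicates per group, and the tests measure the spread between these pools.

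The dermomyotome is the dorsal epithelial sheet of the somite, which gives rise to skeletal muscle and dermis. Its cells express the paired box transcription factors Pax3 and Pax7. WNT and SHH signals from neighbouring tissues favour entry into the muscle lineage, in which Myf5 and Myf6 are among the first basic helix-loop-helix regulators to appear, while BMP signals hold precursors undifferentiated. At limb levels, precursors of the ventrolateral lip express the homeobox gene Lbx1 and leave the somite in response to hepatocyte growth factor, the ligand of the receptor tyrosine kinase Met. Sim1 encodes a basic helix-loop-helix and PAS domain factor of the ventrolateral dermomyotome. None of these genes is restricted to the somite. Pax3 and Pax7 are expressed in the dorsal neural tube and neural crest, Lbx1 in dorsal spinal interneurons, Sim1 in ventral interneurons and intermediate mesoderm, and Met in many epithelia.

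The loci are given on mouse build GRCm38 as the tables list them, with the same start and end as in the GENCODE M21 annotation, and all are protein-coding. Pax3 (ENSMUSG00000004872.15) lies on the minus strand at chr1:78101267-78197134, and Pax7 (ENSMUSG00000028736.13) on the minus strand at chr4:139737062-139833528. Lbx1 (ENSMUSG00000025216.9) is at chr19:45232684-45235812 on the minus strand. Met (ENSMUSG00000009376.15) is at chr6:17463800-17573980 and Sim1 (ENSMUSG00000019913.4) at chr10:50894754-50989152, both on the plus strand. Myf5 (ENSMUSG00000000435.1, chr10:107482908-107486134) and Myf6 (ENSMUSG00000035923.4, chr10:107492853-107494737) are neighbours on the minus strand with 6718 bases between them. No other listed gene overlapped a member, and within 20 kb the tables held 1 further gene, the microRNA gene Gm44403 near Myf5, which was listed at 0 in all 15 libraries.

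Pax3 and Pax7 are close paralogs, as are Myf5 and Myf6, so the longest stretch of identical coding sequence was measured in each pair. It is shown because values of near-identical genes could be split between them by the read assignment. In the GENCODE M21 transcripts, Pax3 and Pax7 shared at most 26 identical coding bases in a row and Myf5 and Myf6 at most 14, against sequenced reads of 75 bases. In the following lines the capitals mark the shared run, and the lower case bases flank it on the coding strand.
Pax3: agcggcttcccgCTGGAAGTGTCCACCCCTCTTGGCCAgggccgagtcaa
Pax7: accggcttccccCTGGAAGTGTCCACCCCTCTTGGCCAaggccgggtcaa
Myf5: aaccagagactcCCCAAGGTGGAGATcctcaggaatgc
Myf6: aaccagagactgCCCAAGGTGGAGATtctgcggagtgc
The Pax windows span coding bases 67 to 116 of both genes, and the Myf windows span coding bases 343 to 380 of Myf5 and 373 to 410 of Myf6.

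Levels are in TPM, which corrects for transcript length and scales every library to the same total, so that genes can be compared with each other. Of the 7 genes, 5 reached a mean of 1 TPM over the 15 libraries and entered the test, together with 14290 genes in all. Myf5 (mean 0.788 TPM) and Myf6 (mean 0.213 TPM) did not, and are described by their levels and a fit without that filter. Lbx1 passed through the TLSMG and TLSMGC groups, since its mean was below 1 TPM in the other groups. Differences are on the log2(TPM + 1) scale, on which changes of low genes are understated, and were tested with limma with Benjamini-Hochberg adjustment over all tested genes, two-sided, at a threshold of 0.05. Relative depth was taken as coverage per unit of FPKM of Lbx1 and Myf5, genes of 1 transcript that gave near-equal values. It ran from 3.12 to 6.84 over the libraries, and 13688 to 14494 genes per library reached 1 TPM. The median difference over all tested genes was 0.13 in TLSMG against Gastruloid, 0.14 in TLSMG against 96h, -0.16 in TLSMGC against TLSMG and -0.18 in TLSMGCL against TLSMG. The differences of single genes in those comparisons stand on that shift.

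**Figure D1:**
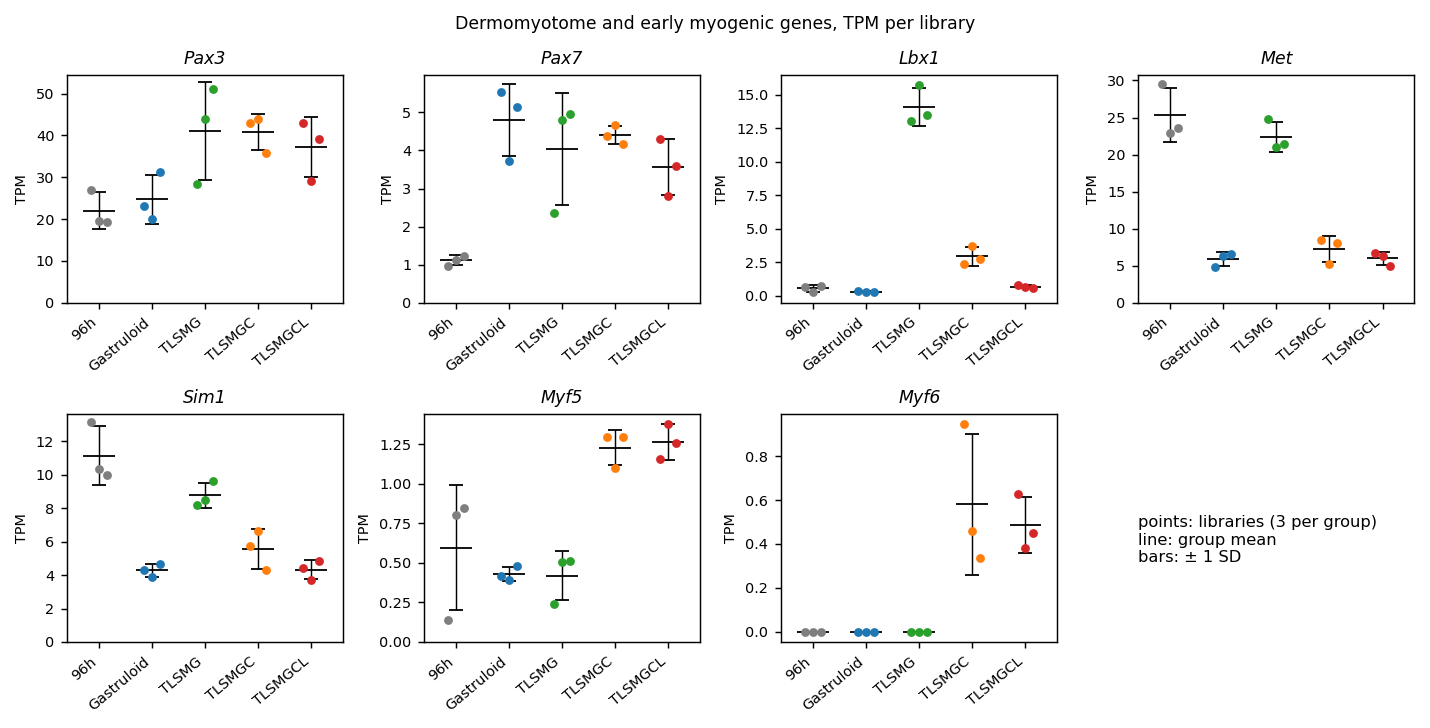
Level of each of the 7 genes in TPM (vertical axes, linear) in the 5 groups, with points for the 3 libraries of a group, a line for the mean and bars of 1 SD. Lbx1 stands at 13.1 to 15.7 TPM in TLSMG and at 3.68 TPM or less elsewhere, Met and Sim1 are high at 96h and in TLSMG, and Myf6 is above 0 in TLSMGC and TLSMGCL.

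The 5 tested members all differed among the 5 groups by a moderated F test, with adjusted p from 1.39e-09 for Lbx1 to 0.00528 for Pax3, where 73.5% of all tested genes did. Among the 4 groups at 120 h, 4 of the 5 differed, where 62.7% of all genes did. Pax7 was the exception (adjusted p = 0.41). By mean TPM over the 15 libraries, Pax3 was the most abundant member (33.2 TPM), followed by Met (13.4 TPM), Sim1 (6.82 TPM), Lbx1 (3.71 TPM) and Pax7 (3.59 TPM). The order depends on the measure, since coverage at 96h was 22.1 to 26.0 reads per base for Met and 10.1 to 15.4 for Pax3.

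Read by comparison, 3 of the 5 tested members passed in Gastruloid against 96h (1 higher, 2 lower), where 41.2% of all tested genes did (20.8% higher, 20.5% lower). In TLSMG against 96h, 3 passed, all higher, beside 46% of all genes called (33.5% higher, 12.5% lower). TLSMGC against 96h had 3 higher and 2 lower beside 40.7% (20.6% higher, 20.1% lower), and TLSMGCL against 96h had 2 higher and 2 lower beside 39.5% (17.4% higher, 22.1% lower). Matrigel alone (TLSMG against Gastruloid) gave 4 higher members beside 39.3% of all genes called (31.5% higher, 7.87% lower). Added CHIR99021 (TLSMGC against TLSMG) gave 3 lower members beside 40.9% (10.4% higher, 30.5% lower), and LDN (TLSMGCL against TLSMGC) gave 1, Lbx1, which was lower, beside 1.18% (0.406% higher, 0.777% lower). In TLSMGCL against TLSMG, 3 were lower beside 44.9% (9.31% higher, 35.6% lower). Comparisons that share TLSMG or 96h libraries are not independent of each other.

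Pax3 and Pax7 were both higher in TLSMG, TLSMGC and TLSMGCL than at 96h, and Pax7 was also higher in Gastruloid. Pax3 was at 19.3 TPM or more in each library, whereas Pax7 stood near 1 TPM at 96h. At 96h, Pax3 measured 27.0, 19.6 and 19.3 TPM in replicates 1 to 3, and in Gastruloid 23.0, 20.0 and 31.3 TPM. TLSMG gave 28.3, 44.0 and 51.1 TPM, TLSMGC 43.0, 43.8 and 35.9 TPM, and TLSMGCL 43.1, 29.2 and 39.2 TPM. All libraries of the Matrigel groups lay above all 96h libraries, while the lowest of TLSMG and of TLSMGCL lay below the highest Gastruloid library.

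Against 96h, Pax3 rose by 0.85 ± 0.22 (SE, adjusted p = 0.00608) in TLSMG, by 0.88 ± 0.22 (adjusted p = 0.00577) in TLSMGC and by 0.73 ± 0.22 (adjusted p = 0.017) in TLSMGCL, or 1.69 to 1.87 times the 96h mean of 22.0 ± 4.39 TPM (SD, n = 3). In Gastruloid it differed from 96h by 0.16 ± 0.22 (adjusted p = 0.594), with overlapping libraries. TLSMG was above Gastruloid by 0.69 ± 0.22 (adjusted p = 0.0235), but the libraries overlapped, and this call was lost under 9 of the 24 alternatives, with adjusted p from 0.0526 to 0.106. They included the values as FPKM, the median-of-ratios scaling and the fits without Gastruloid replicate 1 or 2 or TLSMG replicate 2 or 3. The TLSMGCL call against 96h was lost without 96h replicate 2 or 3 or TLSMGCL replicate 1 or 3 (adjusted p 0.0534 to 0.0674). Added CHIR99021 made a difference of 0.03 ± 0.22 (adjusted p = 0.928) and LDN one of -0.15 ± 0.22 (adjusted p = 0.837), neither of which passed the test.

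Pax7 measured 0.970, 1.13 and 1.24 TPM at 96h, and 5.53, 3.73 and 5.15 TPM in Gastruloid. It measured 2.34, 4.81 and 4.97 TPM in TLSMG, 4.39, 4.66 and 4.18 TPM in TLSMGC and 4.30, 2.81 and 3.60 TPM in TLSMGCL. Every 120 h library lay above every 96h library, and the 4 groups at 120 h overlapped each other in order of their means. Against 96h it rose by 1.45 ± 0.20 (adjusted p = 7.37e-05) in Gastruloid, 1.21 ± 0.20 (adjusted p = 0.000287) in TLSMG, 1.36 ± 0.20 (adjusted p = 0.000129) in TLSMGC and 1.10 ± 0.20 (adjusted p = 0.000726) in TLSMGCL. These comparisons share the 96h libraries. None of the comparisons between 120 h groups passed the test for Pax7, with adjusted p from 0.373 to 0.691. Under the GC and length correction, TLSMGC passed against TLSMG (0.45, adjusted p = 0.0483).

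The balance of the paired box genes differed between groups. Pax3 stood at 20.3 ± 6.64 times the Pax7 level at 96h (SD over 3 libraries, range 15.6 to 27.9) and at 5.20 ± 0.967 times in Gastruloid (4.16 to 6.08). The Matrigel groups lay between these, at 10.5 ± 1.47 in TLSMG, 9.27 ± 0.608 in TLSMGC and 10.4 ± 0.424 in TLSMGCL, and their libraries spanned 8.60 to 12.1. No library of Gastruloid reached the lowest of the Matrigel groups, and no library at 96h fell to their highest. By coverage the genes stood closer, at 10.1 to 15.4 reads per base for Pax3 and 2.01 to 2.41 for Pax7 at 96h. In Gastruloid they stood at 10.2 to 18.2 and 7.16 to 10.9. The size of the ratios thus depends on the measure. The ratios are a description and were not tested.

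In TLSMG, replicate 1 had the lowest Pax3 and Pax7 levels of its group and replicate 3 the highest. Wnt1, a signal of the dorsal neural tube, was highest in TLSMG replicate 2 (1.50 TPM against 0.272 and 0.360), as were the dorsal neural markers Olig3 (3.49 against 0.0977 and 0.776) and Zic1 (10.4 against 2.37 and 3.65). So were Msx1 (26.3 TPM against 11.9 and 18.2), Foxd3 (1.20 against 0.399 and 0.276) and Tfap2b (1.12 against 0.0491 and 0.0416). Msx2, Lmx1a, Gdf7, Sox10 and Tfap2a also peaked in replicate 2. Of the same list, only Ets1 (83.1 TPM against 79.9 and 75.8) and Snai2 (18.2 against 16.4 and 15.8) were highest in replicate 1, and Atoh1 in replicate 3. Over the list of 13 dorsal neural tube and neural crest genes, the 96h libraries summed to 26.4 to 28.9 TPM and those of Gastruloid to 45.4 to 56.7 TPM. The Matrigel groups were higher, with sums of 117 to 144 TPM for TLSMG, 138 to 163 TPM for TLSMGC and 126 to 162 TPM for TLSMGCL. The genes that made up most of the sum differed between groups. Ets1 was the highest in Gastruloid (40.8 ± 4.13 TPM) and TLSMG (79.6 ± 3.65 TPM), Msx1 at 96h (14.5 ± 1.30 TPM), and Zic1 in TLSMGC and TLSMGCL (84.2 ± 10.1 and 106 ± 20.2 TPM). The sums therefore do not stand for every gene of the list. In all 6 libraries with added CHIR99021, 1 of the 13 genes (Zic1) lay above the 9 others and 1 (Foxd3) lay below. Foxd3 was at 0.0912 TPM or less in the 6 and at 0.276 TPM or more in the 9. Snai2, a gene of neural crest and mesenchyme, measured 1.37 ± 0.0845 TPM at 96h, 4.20 ± 1.57 TPM in Gastruloid, 16.8 ± 1.26 TPM in TLSMG, 8.97 ± 2.24 TPM in TLSMGC and 6.02 ± 1.27 TPM in TLSMGCL. It rose in TLSMG against 96h (2.91 ± 0.20, adjusted p = 9.17e-08) and against Gastruloid (1.81 ± 0.20, adjusted p = 7.86e-05), as Pax3 did, and fell in TLSMGC against TLSMG (-0.86 ± 0.20, adjusted p = 0.00439). At the low end of the list, Atoh1 never exceeded 0.0453 TPM and Sox10 0.409 TPM. Tfap2b was above 0 in 4 of 15 libraries, and Lmx1a reached 1.36 TPM, in TLSMG. The part of these cells in the Pax3 and Pax7 levels was not tested. In pooled structures, fewer cells of a type and less RNA per cell cannot be told apart.

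**Figure D2:**
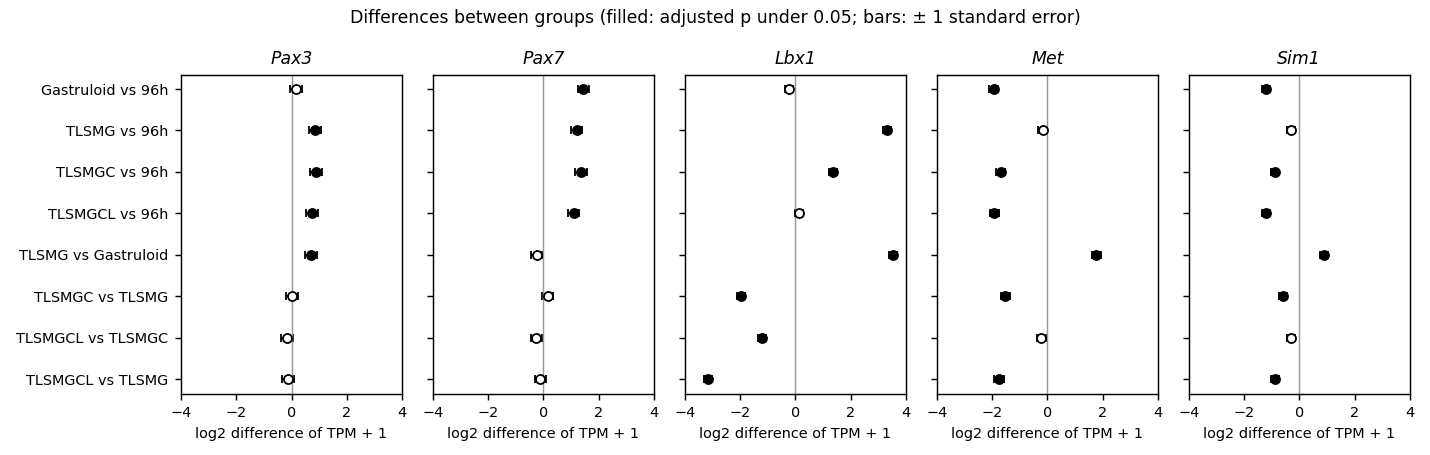
Difference on the log2(TPM + 1) scale (horizontal axes) of the 5 tested genes in the 8 comparisons (rows), with bars of 1 standard error and filled points for an adjusted p under 0.05. Lbx1 spans -3.18 to 3.54, Met and Sim1 move to the same side of 0 in each row, and Pax3 and Pax7 stay within 1.45 of 0.

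Lbx1, the homeobox gene of migrating limb muscle precursors and of dorsal spinal interneurons, was high in Matrigel alone and fell stepwise with CHIR99021 and with LDN. It measured 13.1, 15.7 and 13.5 TPM in TLSMG, 2.35, 3.68 and 2.75 TPM in TLSMGC, and 0.795, 0.636 and 0.580 TPM in TLSMGCL. At 96h it measured 0.653, 0.245 and 0.693 TPM, and in Gastruloid 0.352, 0.248 and 0.300 TPM. TLSMG stood apart from TLSMGC and TLSMGC from TLSMGCL without overlap, whereas TLSMGCL overlapped 96h and 96h overlapped Gastruloid.

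The TLSMG mean of Lbx1, 14.1 ± 1.43 TPM (SD, n = 3), was 47.1 times the Gastruloid mean, a difference of 3.54 ± 0.15 (adjusted p = 2.89e-08), and 26.6 times the 96h mean. With added CHIR99021 it fell by 1.95 (SE 0.15, adjusted p = 4.04e-07), to a mean of 2.93 ± 0.685 TPM. With LDN it fell by 1.22 (SE 0.15, adjusted p = 0.00115), to 0.670 ± 0.112 TPM. The TLSMG mean was 21.0 times this last value. Coverage of Lbx1 was 0.512 to 1.36 reads per base at 96h, 0.543 to 0.696 in Gastruloid and 0.905 to 1.81 in TLSMGCL. The ratios of 47.1, 26.6 and 21.0 rest on these low values, so their size is uncertain. TLSMGC was still above 96h (1.36 ± 0.15, adjusted p = 8.15e-06). TLSMGCL against 96h (0.14 ± 0.15, adjusted p = 0.49) and Gastruloid against 96h (-0.22 ± 0.15, adjusted p = 0.246) did not pass the test. The calls for Lbx1 held under the 24 alternatives of every comparison.

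Met, the receptor of hepatocyte growth factor, was high at 96h and in TLSMG and low in the other groups. It measured 29.6, 22.9 and 23.5 TPM at 96h and 24.8, 21.0 and 21.4 TPM in TLSMG. Gastruloid gave 4.84, 6.24 and 6.57 TPM, TLSMGC 8.48, 5.26 and 7.99 TPM, and TLSMGCL 6.67, 6.34 and 4.96 TPM. The libraries of 96h and TLSMG overlapped, those of the low groups overlapped each other, and a gap from 8.48 to 21.0 TPM lay between both sets.

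From 96h, Met fell by 1.94 (SE 0.16, adjusted p = 7.23e-07) in Gastruloid, by 1.69 (SE 0.16, adjusted p = 3.08e-06) in TLSMGC and by 1.91 (SE 0.16, adjusted p = 9.06e-07) in TLSMGCL. In TLSMG its difference from 96h was -0.17 ± 0.16 (adjusted p = 0.437), which passed under the GC and length correction (-0.50, adjusted p = 0.0446). TLSMG was 3.81 times Gastruloid (1.77 ± 0.16, adjusted p = 2.44e-05) and 3.09 times TLSMGC, which was lower by a difference of -1.53 ± 0.16 (adjusted p = 9.61e-06). LDN made a difference of -0.22 ± 0.16 (adjusted p = 0.628), which did not pass.

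Sim1, the basic helix-loop-helix and PAS factor of the ventrolateral dermomyotome, followed a like order over a smaller range. It measured 13.2, 10.3 and 9.96 TPM at 96h, 8.18, 8.50 and 9.64 TPM in TLSMG, and 4.29, 3.91 and 4.68 TPM in Gastruloid. TLSMGC gave 5.76, 6.64 and 4.29 TPM and TLSMGCL 4.42, 3.71 and 4.83 TPM. Here the 96h libraries lay just above those of TLSMG, and TLSMG lay above the libraries of the other 120 h groups, which overlapped each other.

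Sim1 fell from 96h by 1.19 (SE 0.14, adjusted p = 1.94e-05) in Gastruloid, by 0.90 (SE 0.14, adjusted p = 0.000239) in TLSMGC and by 1.19 (SE 0.14, adjusted p = 2.21e-05) in TLSMGCL. TLSMG was above Gastruloid by 0.89 ± 0.14 (adjusted p = 0.000582), and TLSMGC was below TLSMG (-0.59 ± 0.14, adjusted p = 0.00529). The longest Sim1 transcript had the lowest GC content of the members, 39.8%, and a correction for GC content and length reduced these differences to 0.20 (adjusted p = 0.196) and -0.23 (adjusted p = 0.117), so that neither call held. The difference between TLSMG and 96h, -0.31 ± 0.14 (adjusted p = 0.0965), passed with FPKM (-0.35, adjusted p = 0.0221), with median-of-ratios scaling (-0.46, adjusted p = 0.0112) and with the GC and length correction (-0.85, adjusted p = 3.52e-05).

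Across the 15 libraries, log2(TPM + 1) of Met and Sim1 correlated at Pearson's r = 0.91, the highest value among the 21 pairs of members. The points share library, depth and group. Met stood at 2.28 ± 0.0751 times Sim1 at 96h and 2.57 ± 0.411 times in TLSMG, and at 1.38 ± 0.236 times in Gastruloid, 1.38 ± 0.542 times in TLSMGC and 1.42 ± 0.351 times in TLSMGCL (SD, n = 3). In TPM, the 96h and TLSMG libraries lay at 2.22 or above, and those of the other groups at 1.86 or below. Coverage did not show this gap: TLSMG replicate 1 had 16.7 reads per base for Met and 10.4 for Sim1. Gastruloid replicate 2 had 7.03 and 4.34. Lbx1 correlated less with Met (0.43) and with Sim1 (0.36). Lbx1 was low at 96h, where both were high.

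Tissues in which these genes are also expressed were followed by their markers. The summed level of 4 intermediate mesoderm genes (Osr1, Wt1, Pax8, Gata3) ran from 17.5 to 26.8 TPM in TLSMG, 9.99 to 18.4 TPM at 96h and 5.95 to 6.87 TPM for Gastruloid. It was lower in TLSMGC (3.16 to 5.56 TPM) and in TLSMGCL (0.106 to 0.308 TPM). It moved in the same direction as Lbx1, Met and Sim1 in TLSMG against Gastruloid and in TLSMGC against TLSMG. In TLSMG against 96h its median was higher (25.4 against 12.5 TPM), as was the mean of Lbx1. The means of Met (22.4 against 25.3 TPM) and Sim1 (8.77 against 11.2 TPM) were lower there. All Gastruloid libraries lay above those of TLSMGC in this sum, while the means of Lbx1, Met and Sim1 were lower in Gastruloid. The 12 spinal interneuron genes summed to 29.9 to 37.9 TPM in TLSMG and 27.5 to 32.8 TPM in Gastruloid, overlapping ranges. Their sums were 81.3 to 86.1 TPM at 96h, 38.0 to 41.1 TPM in TLSMGC, above each TLSMG library, and 29.5 to 31.9 TPM in TLSMGCL. By group mean, Lhx1 was the highest gene of this list at 96h (48.5 TPM) and in TLSMGC (14.3 TPM). Tubb3 was the highest in Gastruloid (17.5 TPM), TLSMG (15.0 TPM) and TLSMGCL (19.2 TPM). Of that list, Pax2, also a gene of intermediate mesoderm, and Lhx1 rose in TLSMG against Gastruloid and, like Lmx1b, fell with LDN. Skor1 never exceeded 0.107 TPM, Tlx3 0.341 TPM, Lhx5 0.556 TPM and Ptf1a 0.561 TPM. The sums thus rest mostly on Lhx1, Tubb3 and, at 96h, Stmn2 (16.4 TPM), and are no measure of the number of interneurons. Nkx2-2, a gene of ventral neural tube progenitors, was above 0 in 3 of 15 libraries, at 0.152 TPM or less. The 7 epithelial and endodermal genes, relevant to Met, reached sums of 112 to 152 TPM at 96h. Gastruloid libraries summed to 98.7 to 126 TPM, TLSMG libraries to 86.7 to 129 TPM, TLSMGC libraries to 40.5 to 76.3 TPM and TLSMGCL libraries to 44.9 to 62.8 TPM. The libraries of Gastruloid and TLSMG overlapped in this sum, in which Krt18 had the highest mean in both (32.4 and 28.6 TPM). Single genes differed in direction, with means in Gastruloid and TLSMG of 1.59 and 5.31 TPM for Sox17 and 29.2 and 20.5 TPM for Krt8. The part of these tissues in the levels of Lbx1, Met and Sim1 was not tested.

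**Figure D3:**
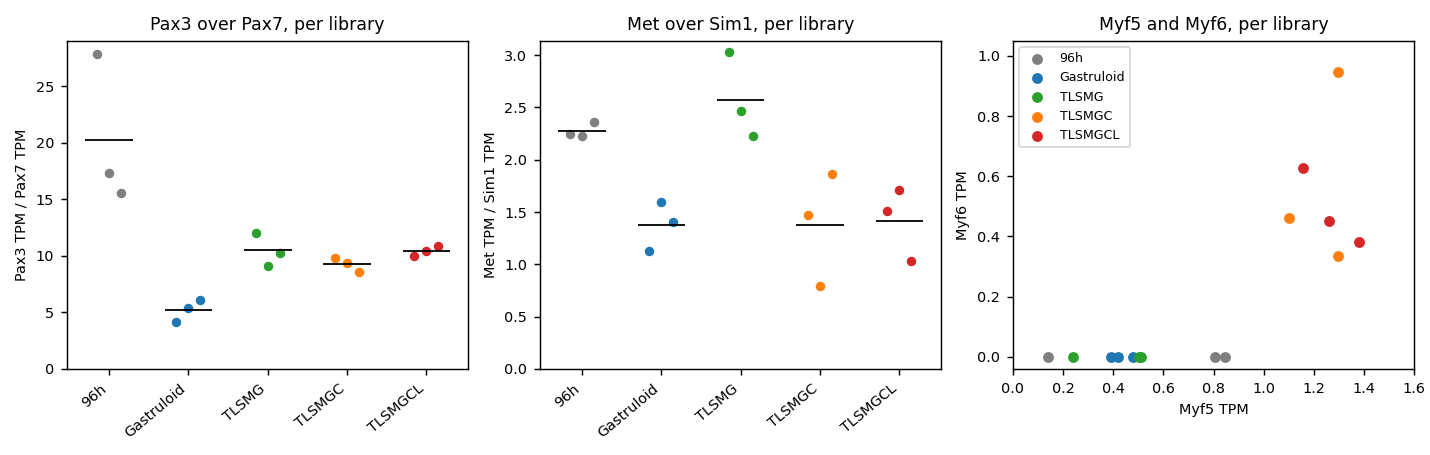
Ratio of Pax3 to Pax7 TPM (left) and of Met to Sim1 TPM (middle) per library, with a line for the group mean, and Myf6 against Myf5 in TPM (right), with 1 point per library. The Pax3 to Pax7 ratio is highest at 96h and lowest in Gastruloid, and the 6 libraries of TLSMGC and TLSMGCL stand apart in both Myf5 and Myf6.

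Myf5 and Myf6, the muscle regulators that adjoin on chromosome 10, were higher with CHIR99021 at 120 h than in any other group, at levels near or below 1 TPM. Myf5 measured 1.29, 1.10 and 1.29 TPM in TLSMGC and 1.15, 1.38 and 1.26 TPM in TLSMGCL. It measured 0.139, 0.805 and 0.846 TPM at 96h, 0.420, 0.392 and 0.478 TPM in Gastruloid and 0.239, 0.504 and 0.510 TPM in TLSMG. The 96h libraries were spread widely, and the 6 libraries with added CHIR99021 lay above the 9 others.

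Myf6 was listed at 0 in all 9 libraries without added CHIR99021 at 120 h. It measured 0.946, 0.460 and 0.336 TPM in TLSMGC and 0.627, 0.381 and 0.452 TPM in TLSMGCL, with a mean coverage of 0.705 to 1.42 reads per exon base. Of the 29971 genes above 0 in any library, 531 (1.77%) had all 6 of these libraries above the 9 others, and 5 (0.0167%) were also listed at 0 in the 9, Myf6 among them. Without counts no detection floor could be set, and a 0 in such tables may come from a failed estimate. No fold was computed for Myf6.

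In the fit without a filter, which tested 29971 genes, Myf5 was above TLSMG by 0.66 ± 0.16 (adjusted p = 0.00974) in TLSMGC and by 0.68 ± 0.16 (adjusted p = 0.00723) in TLSMGCL. Against 96h the differences were 0.51 ± 0.16 (adjusted p = 0.0341) and 0.54 ± 0.16 (adjusted p = 0.028). For Myf6 no test against the groups listed at 0 is given, since libraries at 0 add no spread. That fit called 20.8% and 22.9% of genes in TLSMGC and TLSMGCL against TLSMG, and 21.3% and 20.7% against 96h. Neither gene passed in TLSMGCL against TLSMGC (adjusted p = 1 for Myf5 and 0.981 for Myf6, where 0.47% of genes passed). Where both were above 0, Myf5 stood at 2.54 ± 1.25 times Myf6 in TLSMGC and 2.75 ± 0.891 times in TLSMGCL.

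The sequence before the Myf5 start is shown because Myf5 and Myf6 differed together between the groups with and without added CHIR99021, a WNT agonist. RefSeq promoter windows on GRCm38.p6 were found for 4 of the 7 genes, and Myf5 was the one whose 250 upstream bases held no annotated exon of the gene. The window is chr10:107486135-107486384 on the minus strand, read towards the start site.
Myf5: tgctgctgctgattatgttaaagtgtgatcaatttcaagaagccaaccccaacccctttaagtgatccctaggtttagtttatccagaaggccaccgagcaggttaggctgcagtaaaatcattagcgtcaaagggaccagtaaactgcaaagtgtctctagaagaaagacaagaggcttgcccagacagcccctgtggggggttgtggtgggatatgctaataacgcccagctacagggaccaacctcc
Searched on both strands, the window held no match to the TCF/LEF motif CTTTGNT, the E-box CANNTG or the TATA box TATAAA, and therefore has no capitals. Of 32851 RefSeq promoter windows of the same length, 16.0% held a TCF/LEF match, 66.2% an E-box and 12.4% a TATA box. The letters describe this window only.

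Other genes of the dermomyotome did not move as one with added CHIR99021. Of 6 such genes, 5 were tested and all differed in TLSMGC against TLSMG, 3 higher and 2 lower, beside 10.4% of all genes higher and 30.5% lower, with a median difference of 1.67 against -0.16 over all genes. Wnt11, a WNT ligand of the dorsomedial lip, rose from 0.472 ± 0.376 to 12.9 ± 1.50 TPM (3.26 ± 0.19, adjusted p = 3.6e-08). It passed the filter through TLSMGC and TLSMGCL, with means below 1 TPM in the other groups, so its call is not independent of the filter. Alx4, a homeobox gene, rose from 0.818 ± 0.119 to 4.86 ± 0.456 TPM (1.69 ± 0.12, adjusted p = 3.45e-07). Twist2, a basic helix-loop-helix gene of the dermis lineage, fell from 23.9 ± 0.921 to 1.77 ± 0.381 TPM (-3.18 ± 0.12, adjusted p = 6.06e-10). Dmrt2, which acts downstream of Pax3 in the dermomyotome, was at 98.8 ± 6.38 TPM in TLSMGC and 33.9 ± 13.9 TPM at 96h, a rise of 1.58 ± 0.26 (adjusted p = 0.000263). In TLSMGCL against TLSMGC limma called 0 of the 5, with 1 at an unadjusted p under 0.05. En1, the sixth gene, never exceeded 0.54 TPM.

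**Figure D4:**
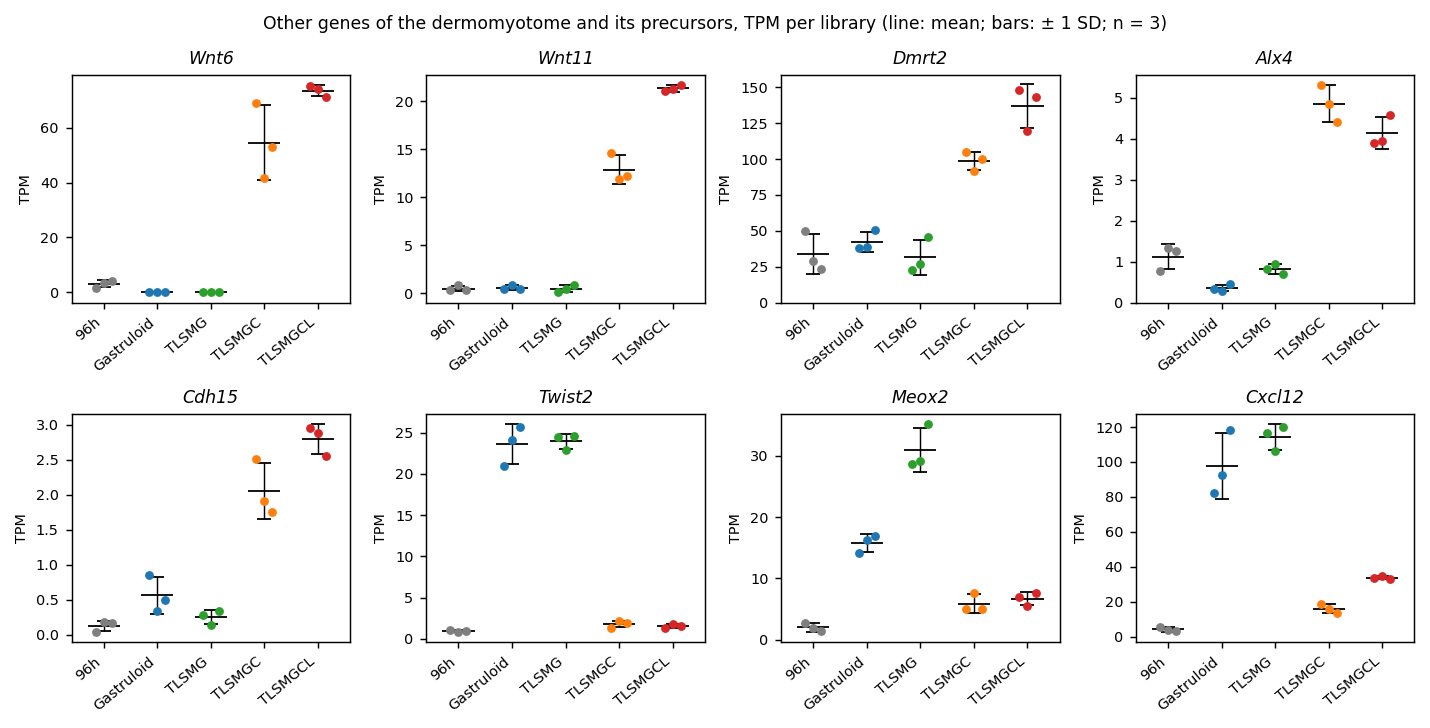
Level in TPM (vertical axes, linear) of 8 other genes of the dermomyotome, its precursors and its signals in the 5 groups, with points for libraries, lines for means and bars of 1 SD. Wnt6, Wnt11, Dmrt2, Alx4 and Cdh15 are higher in the 6 libraries of TLSMGC and TLSMGCL than in the 9 others, while Twist2 and Meox2 are high in Gastruloid and TLSMG.

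The premyogenic network, transcription factors that act with or before Pax3 in the somite, was measured in full, with 13 of 13 genes tested. In TLSMG against 96h, 9 were higher and 3 lower, beside 33.5% and 12.5% of all genes (median 0.48 against 0.14 over all genes), led by Meox2 (3.40), Gli2 (1.79) and Foxc2 (-1.49). In TLSMG against Gastruloid, 4 were higher and 2 lower, with a median of 0.30 against 0.13 over all genes. The higher share is near that of all genes (31.5% higher, 7.87% lower). Added CHIR99021 gave 2 higher and 7 lower, beside 10.4% and 30.5% of all genes, with a median of -0.43 against -0.16 over all genes. Meox2, a somite homeobox gene, fell from 30.9 ± 3.63 to 5.93 ± 1.54 TPM, and Meox1 fell from 543 ± 25.6 to 229 ± 9.58 TPM. Eya2, a transcriptional cofactor, rose from 6.76 ± 1.61 to 15.6 ± 2.21 TPM with CHIR99021 and to 33.4 ± 3.86 TPM with LDN (1.06 ± 0.16, adjusted p = 0.00556), and was the single gene of this list called with LDN.

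Genes of later muscle differentiation were measured at uneven levels. Myod1, a central regulator of the muscle lineage, was listed at 0 in all 15 libraries, and Myog, Mymk and Chrna1 were above 0 in 1, 1 and 2 libraries. Of 11 genes on this list, 4 were tested, and with CHIR99021 1 was higher and 1 lower, beside 10.4% and 30.5% of all genes. Cdh15, which encodes M-cadherin, rose from 0.250 ± 0.103 TPM in TLSMG to 2.06 ± 0.400 TPM in TLSMGC (1.29 ± 0.14, adjusted p = 1.08e-05), the same direction as Myf5 and Myf6. It entered the test through TLSMGC and TLSMGCL, since its mean was below 1 TPM in the other groups. Its call is therefore not independent of the filter. Mef2c, which is also expressed in endothelium and heart, was highest in TLSMG (5.05 ± 0.514 TPM) and fell to 1.52 ± 0.870 TPM in TLSMGC (-1.32 ± 0.26, adjusted p = 0.00123). Des, which encodes the intermediate filament desmin and is expressed in all muscle types, was the highest gene of the list, at 9.39 ± 1.41 TPM at 96h and 4.56 to 5.43 TPM as group means at 120 h. It fell from 96h in each 120 h group, by 0.69 to 0.90 with adjusted p of 0.000697 or less. Mymx, which encodes a fusion peptide of myoblasts, measured 2.08 ± 0.399 TPM at 96h, 4.63 ± 1.75 TPM in Gastruloid, 1.22 ± 0.402 TPM in TLSMG, 0.559 ± 0.162 TPM in TLSMGC and 0.983 ± 0.141 TPM in TLSMGCL. It was lower in TLSMG than in Gastruloid (-1.31 ± 0.21, adjusted p = 0.000581). Its difference with CHIR99021, -0.50 ± 0.21 (adjusted p = 0.0769), had the opposite sign to those of Cdh15 and Myf5 and did not pass. Des and Mymx are named after their values were seen. Limma called 0 of the 4 with LDN, with 1 at an unadjusted p under 0.05.

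Partners of Met in precursor migration differed in direction. Hgf, its ligand, was above 0 in 2 of 15 libraries, at 0.0252 TPM or less. Gab1, the adaptor that binds the activated receptor and is named after its values were seen, was at 28.2 to 40.3 TPM in the 9 libraries without added CHIR99021 and at 16.2 to 24.0 TPM in the 6 with it. Cxcl12, a chemokine, measured 4.03 ± 1.21 TPM at 96h and 114 ± 7.28 TPM in TLSMG, fell to 16.0 ± 2.51 TPM in TLSMGC (-2.77 ± 0.16, adjusted p = 4.48e-08) and rose to 33.7 ± 0.776 TPM with LDN (1.04 ± 0.16, adjusted p = 0.00757). Its receptor Cxcr4 went the other way with CHIR99021, from 15.9 ± 3.41 to 64.9 ± 6.47 TPM (1.98 ± 0.14, adjusted p = 2.63e-07). Of the 5 tested genes on this list, 1 was higher and 3 lower with CHIR99021, beside 10.4% and 30.5% of all genes, and 1 was higher with LDN, beside 0.406%.

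Signals that act on the dermomyotome were higher more often than lower with CHIR99021, 6 against 2 of 9 tested, beside 10.4% of all genes higher and 30.5% lower, with a median of 0.59 against -0.16 over all genes. Wnt6, a WNT ligand of the surface ectoderm and of the somite epithelium, rose from 0.138 ± 0.0953 TPM in TLSMG to 54.6 ± 13.6 TPM in TLSMGC. Fst, which encodes the activin and BMP antagonist follistatin, rose from 26.9 to 65.4 TPM (1.26 ± 0.12, adjusted p = 4.06e-06). Wnt4 fell (-1.57 ± 0.17, adjusted p = 1.25e-05). Nog, which encodes the BMP antagonist noggin, rose in TLSMG against Gastruloid (1.44 ± 0.13, adjusted p = 2.06e-05) and with CHIR99021 (mean 7.41 ± 0.795 TPM) and fell with LDN to 1.84 ± 0.321 TPM (-1.57 ± 0.13, adjusted p = 5.74e-05). Bmp7 rose with LDN (0.59 ± 0.12, adjusted p = 0.0331).

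The separation that Myf5 and Myf6 showed, all 6 libraries with added CHIR99021 above all 9 others, was counted over the lists. Of the 48 genes of the pathway lists, 10 showed it: Cdh15, Tcf15, Dmrt2, Alx4, Wnt11, Cxcr4, Wnt6, Bmp7, Fst and Fzd7, of which Tcf15 and Fzd7 are named after their values were seen. Another 5 lay below in all 6 (Meox1, Gas1, Gab1, Wnt4 and Fzd1, with Gas1 and Fzd1 named after their values were seen). Over all 29971 genes above 0 in any library, 1.77% lay above and 4.13% below. That set also holds the genes below the mean of 1 TPM, which 14290 genes reached, so its levels are unlike those of the lists. The pattern was taken from Myf5 and Myf6, and the lists were chosen with earlier results of these data known. The counts therefore describe the lists and are no test of enrichment. Of 54 marker genes for other tissues, 1 lay above, Zic1, which is also known from the dorsal somite, and 5 lay below. The neural tube progenitor genes Sox1, Sox2, Sox3, Pax6 and Irx3 all fell in TLSMGC against TLSMG, and their list summed to 192 to 286 TPM in TLSMG and 43.8 to 58.9 TPM in TLSMGC. The presomitic genes Tbx6, Msgn1, T, Hes7 and Dll3 all rose in that comparison, their sum going from 49.1 to 68.0 TPM to 200 to 263 TPM. The sclerotome genes Pax1 and Pax9 both fell, the list from 14.8 to 22.2 TPM to 0.350 to 0.951 TPM. The part of these shifts in the members' levels was not tested.

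For the members with a mean of 1 TPM or more, the genes of most similar pattern over the 15 libraries were found by Pearson's r of log2(TPM + 1) among tested genes with a mean of 5 TPM or more. They were Brd2 (0.940), Pus3 (0.939) and Serac1 (0.929) for Pax3, and Gkap1 (0.957), Sh3rf1 (0.950) and Pik3r2 (0.946) for Pax7. Lbx1 was closest to Cgnl1 (0.957), Shank3 (0.954) and Tspan12 (0.944). Shank3, for one, had means of 25.9 TPM in TLSMG, 7.37 TPM in TLSMGC and 4.83 to 5.58 TPM in the other groups. Met was closest to 1700017B05Rik (0.967), Tnfrsf1a (0.966) and Cand1 (0.959), and Sim1 to Ivns1abp (0.976), Zdhhc5 (0.965) and Sema6d (0.963). The points share groups, libraries and depth. Of the members, only Pax3, Met and Sim1 reached the mean of 5 TPM needed to be listed, and none of them was among the 3 closest genes of another member.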

How the data were processed

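Per the submitters' processing notes, cutadapt 2.4, STAR 2.7.3a, StringTie 2.0 and build mm10 were used. Their settings and the annotation release are not given in the sources used here. Per the file headers, the deposited tables list 1 library each, with TPM, FPKM and coverage per gene. The deposited TPM values (length-corrected abundance, scaled to 1 total per library) were analysed. FPKM as deposited, which is scaled by depth before length, served as an alternative, and relative depth came from deposited per-base coverage. No counts were used, so no interval or detection floor was computed. Rows of 1 gene ID were summed, and no member had repeated rows. Of 54446 IDs, 54409 matched GENCODE M21.

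All 15 libraries entered 1 limma 3.58.1 model (R 4.3.3) on log2(TPM + 1), with 1 mean per group, a trended prior, and genes of mean TPM 1 or more. It was tested on simulated data. Python 3.11.15 did the remaining steps. The 8 comparisons set each 120 h group against 96h, TLSMG against Gastruloid, TLSMGC and TLSMGCL against TLSMG, and TLSMGCL against TLSMGC. Alternatives were a pseudocount of 0.1, 2 other filters, FPKM, median-of-ratios scaling, a correction for GC content and length, no trend, a replicate block, leaving out each library, and a fit of 2 groups.

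Per list and comparison, at most the 3 called genes of largest difference were named, and for markers of other tissues also those of highest TPM. Genes at or near 0, Snai2, Des and Mymx were named after their values were seen. The members, the 5 pathway lists and the 8 marker lists were chosen with earlier results of these data known. The 5 single-cell samples and the NanoString data were not analysed here.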

Additional observations from a re-analysis of the deposited data

How the results depend on the processing

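Of 960 alternatives over the 5 tested members and 8 comparisons, 922 kept the direction and the side of the threshold, 15 lost the call, 5 gained one and 18 changed sign. No sign change involved a call. They concern Pax3 in TLSMGCL against TLSMG (0.0092 with FPKM, 0.077 with median-of-ratios scaling, 0.14 with the GC and length correction) and Pax7 there (0.051 with median-of-ratios scaling, 0.23 with the GC and length correction). The others came from leaving out 1 library. Pax3 then ranged from -0.016 to 0.31 in Gastruloid against 96h, -0.21 to 0.20 in TLSMGC against TLSMG, -0.26 to 0.011 in TLSMGCL against TLSMGC and -0.36 to 0.054 in TLSMGCL against TLSMG. Pax7 ranged from -0.38 to 0.034 in TLSMG against Gastruloid, -0.12 to 0.29 in TLSMGC against TLSMG and -0.38 to 0.039 in TLSMGCL against TLSMG, and Lbx1 from -0.0042 to 0.22 in TLSMGCL against 96h. The number of members called moved under the GC and length correction from 3 to 5 in TLSMG against 96h and from 4 to 2 in TLSMG against Gastruloid. It moved from 3 to 5 with no filter in TLSMGC and in TLSMGCL against TLSMG, where Myf5 and Myf6 entered the test. Both genes also raised the counts of TLSMGC and of TLSMGCL against 96h in that fit. Smaller moves, such as the loss of Pax3 in TLSMG against Gastruloid described above, are not listed here. Myf6 is listed at 0 in TLSMG and at 96h, so its part of these counts supports no call.

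Over all genes, the GC and length correction called 3281 in place of 5622 in TLSMG against Gastruloid and 279 in place of 169 in TLSMGCL against TLSMGC. The latter count was 42 in a fit of the 2 groups, 56 without TLSMGC replicate 2, 70 without TLSMGCL replicate 1 and 78 without TLSMGCL replicate 3. Median-of-ratios scaling moved the split of higher and lower genes from 4497 and 1125 to 2763 and 2594 in TLSMG against Gastruloid, from 4792 and 1785 to 3194 and 3299 in TLSMG against 96h, and from 1490 and 4352 to 2621 and 2686 in TLSMGC against TLSMG. In TLSMGCL against TLSMG it moved from 1330 and 5086 to 2734 and 2865, and in TLSMGCL against TLSMGC from 58 and 111 to 103 and 99. Why these counts moved was not tested.

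Replicate numbers did not pair the libraries: mean correlations of same-numbered deviations ran from -0.07 to 0.04, and 0 of 15 libraries correlated best with their own number. With the replicate block, the number of members called was the same in each of the 8 comparisons, for example 4 in TLSMG against Gastruloid (Pax3 adjusted p = 0.0326). Depth limits Myf5 and Myf6 most, whose coverage stayed at 3.01 and 1.42 reads per base or less. It also limits Lbx1 at 96h, in Gastruloid and in TLSMGCL, with coverage of 0.512 to 1.81 reads per base.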

Other observations

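Other genes of the lists that passed in TLSMGCL against TLSMGC, beside Lbx1, came mostly from the marker lists. Pax2, a gene of intermediate mesoderm and interneurons, went from 5.53 ± 1.56 TPM in TLSMGC to 0.200 ± 0.0528 TPM in TLSMGCL (SD, n = 3; -2.42 ± 0.15 SE on the log2(TPM + 1) scale, adjusted p = 6.43e-06), and Osr1, an early intermediate mesoderm gene, from 2.48 ± 0.930 to 0.0468 ± 0.0145 TPM (-1.70 ± 0.23, adjusted p = 0.00302). Lhx1 (-1.06 ± 0.13, adjusted p = 0.00101), Lmx1b (-1.07 ± 0.16, adjusted p = 0.00497), Msgn1 (-1.18 ± 0.22, adjusted p = 0.0194), Nkx6-1 (-0.94 ± 0.20, adjusted p = 0.0354) and Msx1, a target of BMP signalling (-1.16 ± 0.20, adjusted p = 0.0125), were lower too. These are differences between 3 libraries a group, tested with limma, and their relation to the fall of Lbx1 was not tested.

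Zic1, a zinc finger gene of the dorsal neural tube and dorsal somite, showed the largest difference of the 13 dorsal neural tube and neural crest genes between TLSMGC and TLSMG (3.91 ± 0.32, adjusted p = 7.69e-07). It measured 84.2 ± 10.1 TPM in TLSMGC and 106 ± 20.2 TPM in TLSMGCL, against 5.47 ± 4.30 TPM in TLSMG, 1.33 ± 0.286 TPM in Gastruloid and 1.08 ± 0.162 TPM at 96h (SD, n = 3). In the same comparison Sox1 fell from 17.8 to 2.10 TPM (-2.60 ± 0.22, adjusted p = 9.02e-07) and Pax6 from 10.5 to 0.139 TPM (-3.24 ± 0.36, adjusted p = 1.38e-05). Zic1 thus moved opposite to these neural progenitor genes.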
